A study of Homo sapiens with 6 samples.

Results

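DOT1L and 7 genes whose proteins work with it or with the transcription elongation machinery (MLLT1, MLLT3, MLLT10, MLLT6, AFF1, AFF4 and ELL) were examined for the marks that DOT1L itself lays down, H3K79me2 and H3K79me3 (histone H3 with 2 or 3 methyl groups on lysine 79). The 8 genes were defined by their spans on hg19, which together cover 1023 kb, and every peak that overlapped a span by at least 1 bp was taken. In the 4 ChIP lists, 15 peaks of 25683 met that rule, and the input lists held 0 peaks in these spans.

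The libraries came from 293T, an established line of human embryonic kidney origin that expresses SV40 large T antigen. A line with a stable control hairpin (shCTL, called control here) was compared with a line with a stable hairpin against KDM2B (shKDM2B, called knockdown), and the study asked whether KDM2B, a JmjC-domain protein with a CpG-binding zinc finger, takes methyl groups off H3K79. Each line gave 1 H3K79me2, 1 H3K79me3 and 1 input library made without antibody, with the same antibody lots in both lines. The level of KDM2B was not analysed here, the sources used here do not say how many hairpins or clones stand behind a line, and with 1 library per group no difference below has a replicate check or a test.

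DOT1L is the histone methyltransferase that methylates H3K79, a residue on the face of the nucleosome, and its marks lie mostly over the early part of transcribed genes. MLLT10 (AF10) and MLLT6 (AF17) are partner subunits of DOT1L, and MLLT10 favours the higher methylation states. MLLT1 (ENL) and MLLT3 (AF9) carry a YEATS domain that reads acylated lysines on histone H3 and join either DOT1L or the super elongation complex. In that complex AFF1 (AF4) and AFF4 are the scaffolds and ELL is an elongation factor that suppresses pausing of RNA polymerase II. Several of these genes are known as fusion partners of KMT2A in leukaemia.

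The 3 genes that carried the same mark at their start in both lines were MLLT10, MLLT1 and MLLT6. Their promoter sequences are shown because each of those peaks lay at or within 1 kb of the gene start. Only the MLLT6 peaks cross the start of the span. Those of MLLT1 begin 59 and 132 bp after it and those of MLLT10 174 to 986 bp after it. The sequences were chosen by gene and were not cut from the peaks. Each runs from 250 bases before to 50 bases after the start listed by RefSeq on GRCh38.p14, 5′ to 3′ along the gene, with every CpG dinucleotide (the letters CG, the same on both strands) in capitals. The MLLT10 promoter is the first of its 2 entries and lies on chromosome 10, 21533982 to 21534281, plus strand. The MLLT1 promoter lies on chromosome 19, 6279926 to 6280225, minus strand, and that of MLLT6 on chromosome 17, 38705023 to 38705322, plus strand. The peaks are on hg19, so these positions are not comparable with theirs.
MLLT10: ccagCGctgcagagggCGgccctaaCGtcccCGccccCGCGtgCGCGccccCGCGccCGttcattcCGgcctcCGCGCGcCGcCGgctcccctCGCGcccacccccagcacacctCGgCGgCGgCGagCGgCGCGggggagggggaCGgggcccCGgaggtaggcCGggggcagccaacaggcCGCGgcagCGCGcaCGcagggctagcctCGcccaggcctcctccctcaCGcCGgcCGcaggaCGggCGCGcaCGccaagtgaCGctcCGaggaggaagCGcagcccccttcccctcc
MLLT1: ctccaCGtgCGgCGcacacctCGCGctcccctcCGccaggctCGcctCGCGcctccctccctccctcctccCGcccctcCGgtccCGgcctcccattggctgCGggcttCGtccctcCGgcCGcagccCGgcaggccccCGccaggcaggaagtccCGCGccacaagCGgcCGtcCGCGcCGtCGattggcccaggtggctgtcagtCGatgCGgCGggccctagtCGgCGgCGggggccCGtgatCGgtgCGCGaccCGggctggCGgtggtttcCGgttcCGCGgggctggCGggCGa
MLLT6: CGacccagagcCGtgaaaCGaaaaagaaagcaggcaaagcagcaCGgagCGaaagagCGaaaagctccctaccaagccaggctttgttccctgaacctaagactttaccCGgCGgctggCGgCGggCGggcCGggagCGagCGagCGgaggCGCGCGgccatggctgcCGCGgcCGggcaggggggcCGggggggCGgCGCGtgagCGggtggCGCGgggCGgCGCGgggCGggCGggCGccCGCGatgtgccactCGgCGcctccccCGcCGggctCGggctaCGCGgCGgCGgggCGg

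All 3 of these sequences were dense in CpG. The MLLT6 promoter held 46 CpG, more than 97.1% of the 35116 promoters in the table, the MLLT10 promoter 45 and the MLLT1 promoter 43, against a median of 14. CpG occurred at least once in 96.0% of all promoters. Of the 8 genes 7 were matched, with 9 promoter entries between them, and all 9 lay above that median. AFF1 had 42 and 41 CpG in its 2 entries. AFF4 and ELL had 31 each, MLLT3 had 24, and the second MLLT10 entry had 15. The 2 AFF1 entries lie on chromosome 4 at 86934761 to 86935060 and at 87007021 to 87007320 (GRCh38.p14, plus strand). The second is thus a start inside the gene, and the distance of the single weak AFF1 peak from it was not measured. A high CpG count was therefore shared by genes with and without a peak at the start of the span. DOT1L had no entry.

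Each ChIP list had peaks in 3 or 4 of these 8 genes, and the share over all genes was not measured. Of the 32 combinations of gene and ChIP library, 15 had a peak, always a single one, and 17 had none. H3K79me2 was found in 4 genes in control cells (MLLT3, MLLT10, MLLT6 and AFF1) and in 3 in knockdown cells (MLLT10, MLLT6 and ELL). H3K79me3 was found in 4 genes in control cells (DOT1L, MLLT1, MLLT10 and ELL) and in 4 in knockdown cells (MLLT1, MLLT3, MLLT10 and AFF4). Each gene had at least 1 peak in at least 1 library, and MLLT10 was the only one of the 8 with a peak in all 4. Control H3K79me2 peaks covered 0.889% of the joined spans and knockdown H3K79me2 peaks 0.987%, against 0.776% of the effective genome in both lists. H3K79me3 covered 1.43% in control cells and 1.07% in knockdown cells, against 0.643% and 0.757% of the effective genome. Of the 14633 bp under control H3K79me3, 7491 bp came from the ELL peak. Shares of the effective genome are not shares over genes, which were not measured. The lists count only calls above a threshold, so a gene without a peak is not a gene without the mark.

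**Figure D1:**
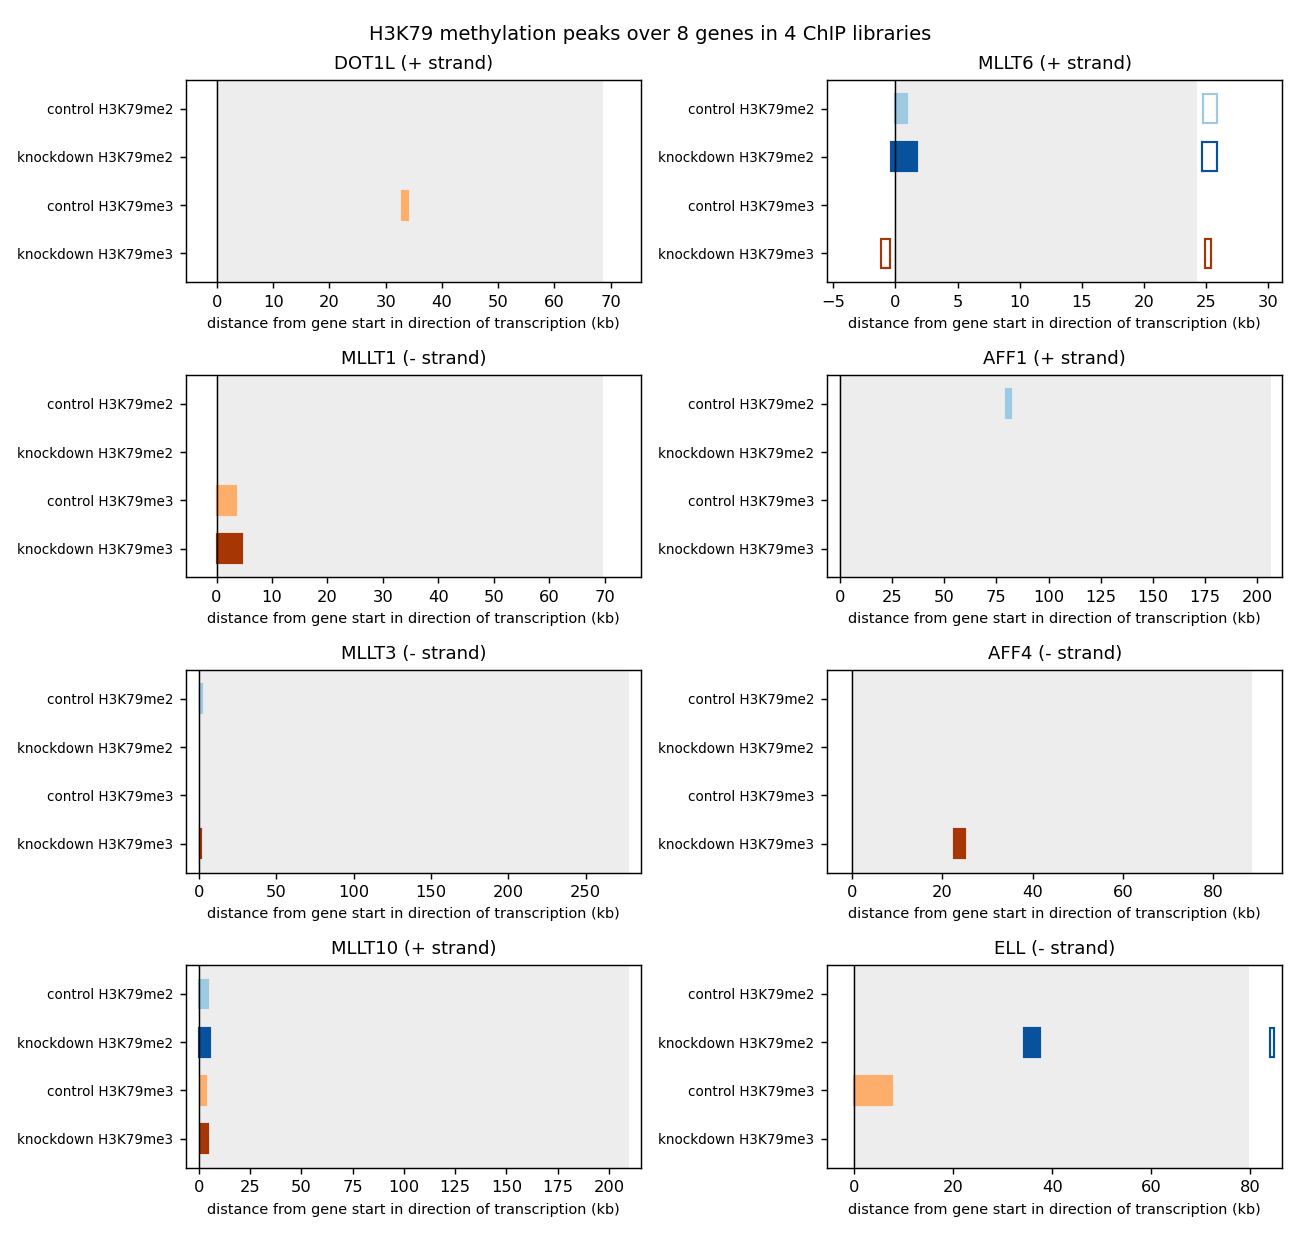
Position of every listed peak (filled bars) over the 8 genes, drawn as distance from the gene start in the direction of transcription in kb, with 1 row for each of the 4 ChIP libraries and the gene span in grey; open bars are peaks within 5 kb outside the span. In MLLT10, MLLT1, MLLT6 and MLLT3 all bars inside the span sit at the gene start, whereas those of DOT1L, AFF1 and AFF4 and 1 of the 2 in ELL lie 22.5 to 79.8 kb inside.

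Measured from the start of each span, the peaks fell into a set at gene starts and a set further inside. The limit of 1 kb that separates them was chosen after the positions were seen. At the start were 11 peaks in 5 genes (MLLT1, MLLT3, MLLT10, MLLT6 and ELL), with scores of 62.1 to 277, of which 8 had a counterpart of the same mark in the other line. The other 4 began 22.5 to 79.8 kb into DOT1L, AFF1, AFF4 and ELL, had scores of 51.6 to 63.3, and 0 of them had a counterpart. The score is the caller's own, 10 times the negative log10 of a p computed within the library, and its floor is 50.

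MLLT10 gave the most complete picture among the DOT1L partners. Its 4 peaks all began 0.174 to 0.986 kb after the gene start and reached 3.64 to 5.23 kb into a gene of 209 kb. H3K79me2 lay at 21823327 to 21827535 on chromosome 10 in control cells, with 258 tags, and at 21823275 to 21828335 in knockdown cells, with 231 tags. In tags per 1000000 filtered tags (RPM) these were 16.1 (exact Poisson 95% interval 14.2 to 18.2) and 17.6 (15.4 to 20.0). The knockdown peak was wider, at 5061 against 4209 bp, so that the density ran the other way, from 3.83 RPM per kb of peak in control to 3.47 in knockdown cells.

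H3K79me3 at MLLT10 lay inside the H3K79me2 peak in both lines. It covered 21824050 to 21826743 in control cells, with 113 tags or 6.63 RPM (5.46 to 7.97), and 21824087 to 21827515 in knockdown cells, with 170 tags or 10.4 RPM (8.87 to 12.1). Its density was 2.46 RPM per kb in control and 3.02 in knockdown cells. All of the H3K79me3 length was under H3K79me2, and H3K79me3 took up 64.0% of the H3K79me2 length in control and 67.8% in knockdown cells. The calls of both marks therefore stood over the same first few kb of this gene, and the H3K79me3 call was the narrower in each line. It also had fewer tags than the H3K79me2 call, and the part of tag number in the called widths was not tested.

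MLLT6, the other AF10-type partner, carried H3K79me2 across its start in both lines and had no H3K79me3 peak within the gene. The control H3K79me2 peak ran from 36861850 to 36862769 on chromosome 17, 23 bp before the start to 0.896 kb after it, with 38 tags or 2.37 RPM (1.68 to 3.26). The knockdown peak ran from 36861475 to 36863577, 398 bp before the start to 1.70 kb after it, with 77 tags or 5.86 RPM (4.62 to 7.32). The knockdown peak was 2.29 times as wide, and the density was nearly equal, at 2.58 RPM per kb in control and 2.79 in knockdown cells.

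Just outside MLLT6 the knockdown cells did have H3K79me3. A peak of 760 bp and 32 tags (score 87.4) ended 406 bp before the gene start, next to the H3K79me2 peak but not overlapping it, and the nearest control H3K79me3 peak was 11.5 kb past the gene end. Past the gene end, 499 to 770 bp from it, lay H3K79me2 peaks of both lines and a knockdown H3K79me3 peak of 18 tags. These H3K79me2 peaks held 46 tags or 2.87 RPM in control and 32 tags or 2.43 RPM in knockdown cells. MLLT6 is the shortest of the 8 genes, at 24.2 kb, so these outer peaks sit close to it on both sides; they were not assigned to a gene.

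In control cells the YEATS-domain genes had calls of different marks, H3K79me3 in MLLT1 and H3K79me2 in MLLT3. In knockdown cells both had calls of H3K79me3 only, and that of MLLT3 rested on 18 tags. MLLT1 had an H3K79me3 peak and no H3K79me2 peak in either line. Its control H3K79me3 peak lay at 6276491 to 6279900 on chromosome 19, starting 59 bp into the gene, with 158 tags or 9.27 RPM (7.88 to 10.8). The knockdown peak lay at 6275408 to 6279827, starting 132 bp into the gene, with 344 tags or 21.0 RPM (18.8 to 23.3). Width was 3410 bp in control and 4420 bp in knockdown cells and density 2.72 and 4.75 RPM per kb. The 2 Poisson intervals of RPM do not overlap, which also held for H3K79me3 at MLLT10 and H3K79me2 at MLLT6. RPM follows the called width. Over all H3K79me3 regions with a peak in both lines the median log2 ratio of RPM, knockdown over control, was 0.60. The summits were near each other, 0.560 and 0.425 kb after the start. The nearest H3K79me2 peak was 10.8 kb past the gene end in both lines. At a score of 277 the knockdown peak was the strongest of the 15 by the caller's measure.

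MLLT3 had calls at its start, of H3K79me2 in control cells and of H3K79me3 in knockdown cells. Both scored below the median of their list. In control cells it had H3K79me2 at 20620325 to 20622040 on chromosome 9, with 71 tags or 4.43 RPM (3.46 to 5.59) and a score of 114. In knockdown cells it had H3K79me3 at 20621292 to 20621897, with 18 tags or 1.10 RPM (0.651 to 1.74) and a score of 62.1. The knockdown H3K79me3 peak lies within the bounds of the control H3K79me2 peak, 0.617 to 1.22 kb after the start. It is the smallest of the 15 peaks in tags and in width, at 606 bp. Its fold enrichment, a ratio set by the caller within the library, was the highest of the 15, at 9.16. The nearest knockdown H3K79me2 peak was 62.4 kb away and the nearest control H3K79me3 peak 706 kb away. MLLT3 is the longest of the genes, at 278 kb, and 0.618% of it was under H3K79me2 in control cells.

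The scaffold genes of the super elongation complex, AFF1 and AFF4, had 1 peak each, in 1 line. AFF1 had a single H3K79me2 peak, in control cells, at 87935942 to 87938211 on chromosome 4, with 79 tags or 4.93 RPM (3.90 to 6.15), 79.8 kb into the gene. AFF4 had a single H3K79me3 peak, in knockdown cells, at 132274345 to 132276825 on chromosome 5, with 118 tags or 7.20 RPM (5.96 to 8.62), 22.5 kb into the gene. Their scores were 52.3 and 51.6, just above the floor of 50, and only 2.30% and 1.36% of the peaks in their lists scored lower. Neither scaffold gene had a peak at the start of its span in any library. For AFF1 this leaves aside the second promoter entry, which lies inside the gene. About 7 kb past the end of AFF4 all 4 libraries had a peak, with scores of 532 to 861 over the 4 lists. H3K79me2 there had 238 tags (14.9 RPM) in control and 172 (13.1 RPM) in knockdown cells. H3K79me3 had 198 tags (11.6 RPM) in control and 253 (15.4 RPM) in knockdown cells.

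ELL had the widest peak of the 15. H3K79me3 in control cells covered 18625447 to 18632937 on chromosome 19, the first 7491 bp of the gene, with 478 tags or 28.0 RPM (25.6 to 30.7). It was wider than 97.1% of the control H3K79me3 peaks and its density, 3.74 RPM per kb, was above that of 56.0% of them. Its score of 65.5 was above that of only 11.4%. The caller took its regional background over 10000 bp of the same library, without a control file. The part of that setting in this score and in the missing knockdown call was not tested. No knockdown H3K79me3 peak was listed in ELL, the nearest being 18.8 kb past its end. In knockdown cells ELL instead had an H3K79me2 peak 34.2 kb inside, at 18595411 to 18598738, with 131 tags or 9.97 RPM (8.33 to 11.8) and a score of 60.5. The ELL calls of the 2 lines thus shared neither mark nor place.

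The DOT1L gene itself had 1 call, in 1 line, as did AFF1 and AFF4. Its single peak was H3K79me3 in control cells at 2197040 to 2198077 on chromosome 19, 32.9 kb into the gene, with 28 tags or 1.64 RPM (1.09 to 2.37). Its density of 1.58 RPM per kb was the lowest of the 15, and 2.13% of the control H3K79me3 peaks were less dense. Its score of 63.3 was above that of 9.97% of them, and its fold of 5.32 above that of 43.9%. No H3K79me2 peak was listed in either line, and the nearest ones lay 35.8 kb (control) and 34.9 kb (knockdown) past the gene end. DOT1L lies on chromosome 19 with MLLT1 and ELL, where H3K79me2 peaks covered 2.46% of the chromosome up to its last listed peak in control cells and 2.67% in knockdown cells. Over the 3 genes together, H3K79me2 covered 0 bp in control and 1.53% in knockdown cells. H3K79me3 covered 5.49% of the 3 genes in control cells, mostly through the ELL peak, and 2.03% in knockdown cells, against 1.89% and 2.15% of the chromosome.

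**Figure D2:**
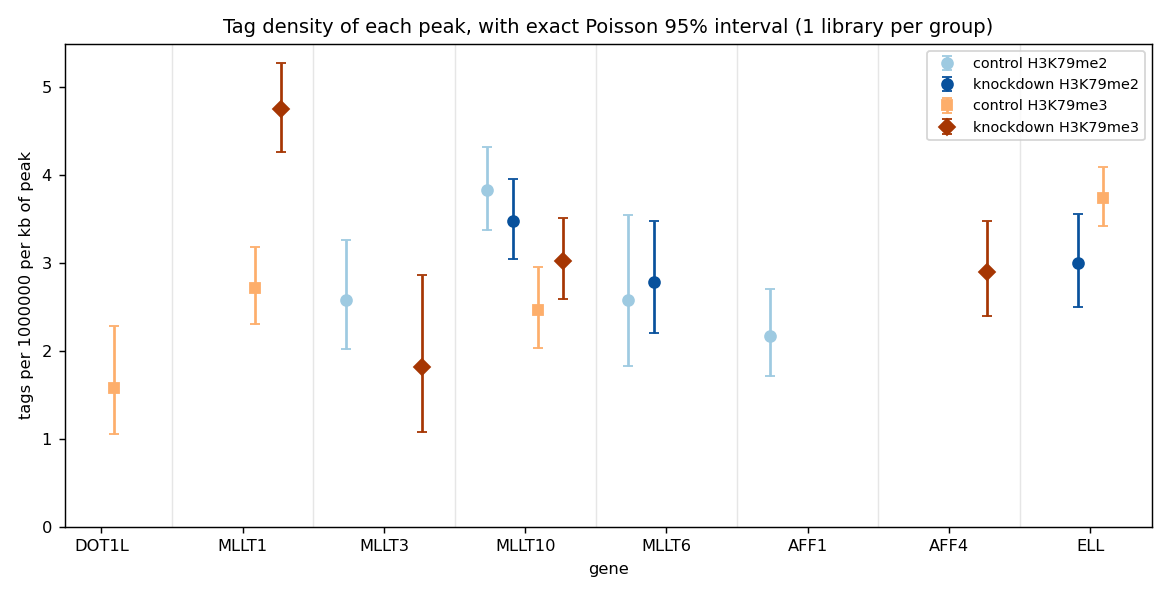
Tag density of each of the 15 peaks, in tags per 1000000 filtered tags per kb of peak, by gene, with exact Poisson 95% intervals that cover counting error only; 1 point is 1 library. Knockdown H3K79me3 at MLLT1 stands highest, at 4.75, and control H3K79me3 at DOT1L lowest, at 1.58.

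Between the lines, only 4 stretches could be compared, because a ratio was formed only where overlapping peaks of both lines made up a region. For H3K79me3 the density at MLLT1 was 1.75-fold higher in knockdown cells (95% counting interval 1.45 to 2.11; log2 ratio 0.80), past the limit of 1.5-fold used here. At MLLT10 it was 1.23-fold higher (0.969 to 1.56; log2 ratio 0.30), and that interval includes equality. Thus 1 of 2 H3K79me3 regions was past 1.5-fold upward and 0 downward. Over all 5087 H3K79me3 regions with a peak in both lines 44.9% were past the limit upward and 0.177% downward, so the count in these genes is close to the background. The median log2 ratio of all those regions was 0.55. MLLT1 lay above it, higher than 80.5% of the regions, and MLLT10 below it, higher than 18.4%, but the counting intervals of both log2 ratios, 0.53 to 1.08 for MLLT1 and -0.05 to 0.64 for MLLT10, include that median.

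For H3K79me2 both ratios were near equality. The density at MLLT10 was 0.907-fold in knockdown relative to control cells (0.760 to 1.08; log2 ratio -0.14) and at MLLT6 1.08-fold (0.732 to 1.59; log2 ratio 0.11). Of these 2 regions 0 were past 1.5-fold in either direction, as were few of all 5432 H3K79me2 regions, 0.847% upward and 4.42% downward. The median of all regions was -0.15, almost the MLLT10 value. Relative to that median the MLLT10 ratio was 0.01, so its direction rests on the scaling. By summed tags, which follow the called width, MLLT6 stood 2.47-fold higher in knockdown cells (log2 ratio 1.30), higher than 95.9% of the regions, and MLLT10 1.09-fold higher.

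**Figure D3:**
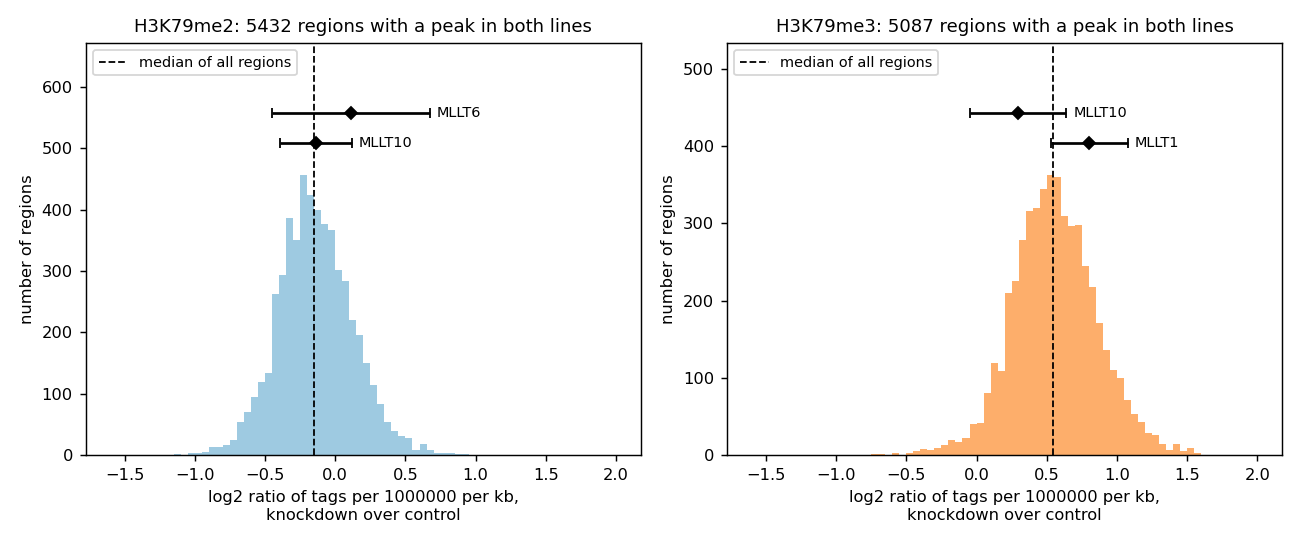
Log2 ratio of RPM per kb, knockdown over control, for all regions with a peak in both lines (histograms; dashed line at the median) and for the regions in MLLT10, MLLT6 and MLLT1 (diamonds with 95% counting intervals), H3K79me2 on the left and H3K79me3 on the right. The MLLT10 and MLLT6 intervals for H3K79me2 span the median of -0.15, and for H3K79me3 MLLT1, at 0.80, and MLLT10, at 0.30, lie on either side of the median of 0.55, with intervals that reach it.

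The remaining 7 peaks had no counterpart in the other line. They were 2 of 4 control H3K79me2 peaks (MLLT3 and AFF1), 1 of 3 knockdown H3K79me2 peaks (ELL), 2 of 4 control H3K79me3 peaks (DOT1L and ELL) and 2 of 4 knockdown H3K79me3 peaks (MLLT3 and AFF4). In the whole lists the shares without a counterpart were 19.0%, 12.2%, 8.70% and 27.2% in that order. The 7 peaks scored 51.6 to 114, and the 8 with a counterpart 93.2 to 277. Scores in the deeper library of each mark were also multiplied by the ratio of filtered tags, shallower over deeper, a setting chosen after the data were seen. It lowered control scores only, since the control library was the deeper for both marks. The knockdown peaks of ELL, MLLT3 and AFF4 could therefore not fall. Of the control peaks, that of AFF1 fell below the floor, and those of MLLT3, DOT1L and ELL stayed above it. The knockdown H3K79me2 library had 13144744 filtered tags and the control H3K79me2 library 16018517; the part of depth in the missing calls was not tested beyond that scaling.

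**Figure D4:**
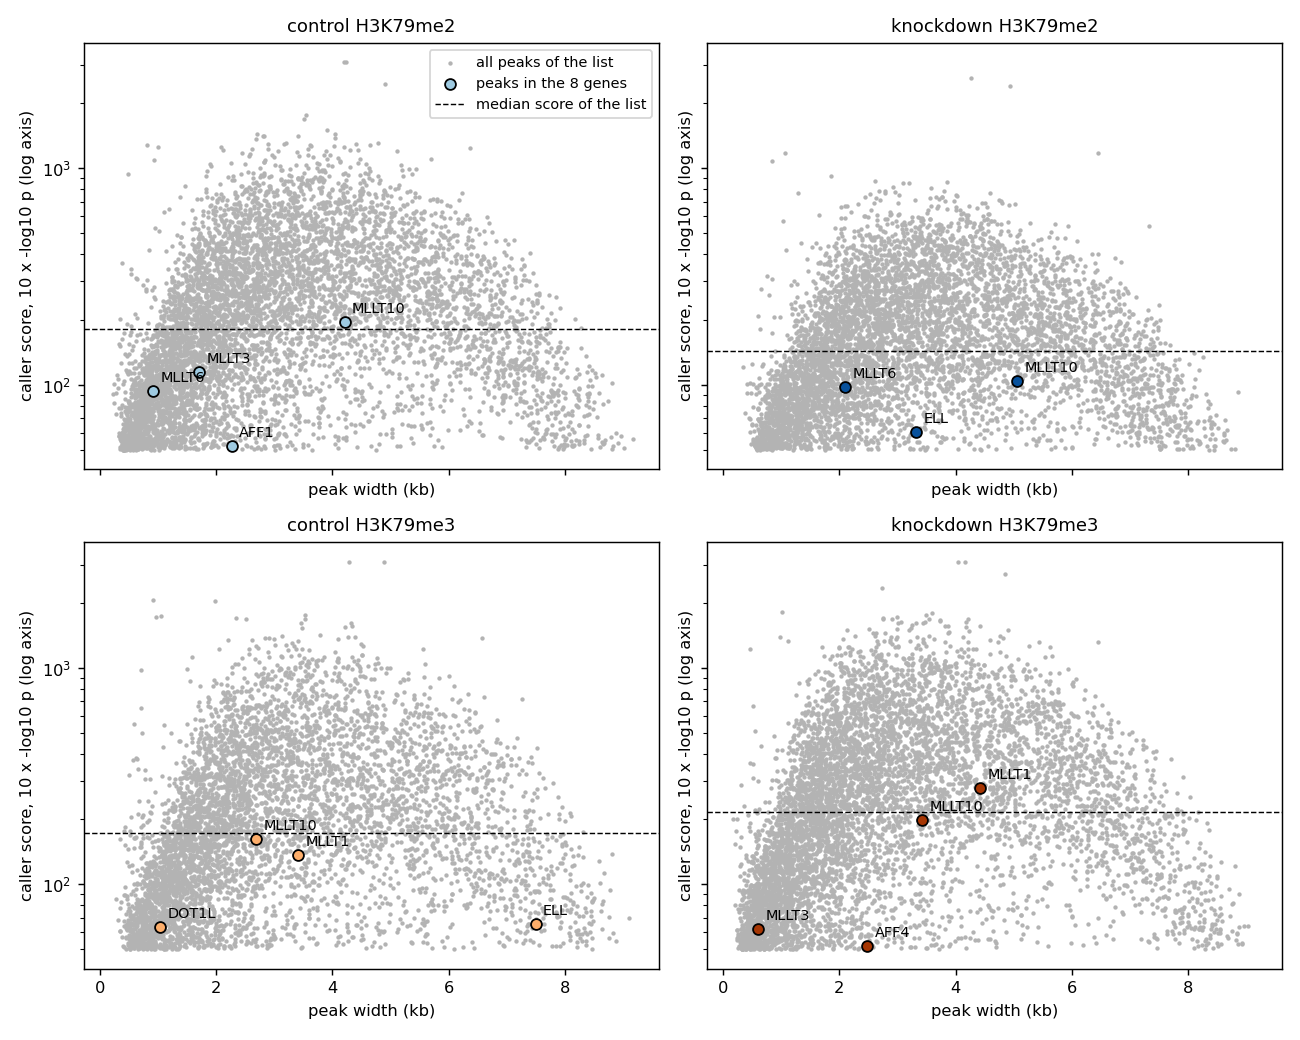
Width of each peak in kb against the caller's score (log axis, 10 times the negative log10 p) for all peaks of the 4 ChIP lists (grey) and the peaks in the 8 genes (coloured, named), with the median score of each list as a dashed line. Of the 15 named peaks, 13 lie below the median of their list; control H3K79me2 at MLLT10 and knockdown H3K79me3 at MLLT1 lie above it, and the wide ELL peak lies near the floor.

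Most peaks in these genes stood low in their own lists, and MLLT10 was the only one of the 8 genes where the marks overlapped. By score 13 of 15 were below the median of their own list, with the exceptions of control H3K79me2 at MLLT10 (195) and knockdown H3K79me3 at MLLT1 (277). By density 13 of 15 were below it too, with the exceptions of knockdown H3K79me3 at MLLT1 and control H3K79me3 at ELL. In each list 1 peak, that of MLLT10, overlapped a peak of the other mark in the same line, which is 1 of 4 control H3K79me2, 1 of 4 control H3K79me3, 1 of 3 knockdown H3K79me2 and 1 of 4 knockdown H3K79me3 peaks. The exact Clopper-Pearson 95% interval of 1 in 4 runs from 0.631 to 80.6% and that of 1 in 3 from 0.840 to 90.6%. Such an interval treats the peaks as independent draws, which peaks of chosen genes in 1 library are not. Over the whole lists 66.7%, 81.6%, 83.1% and 75.0% of the peaks did so, in the same order. In length, H3K79me3 peaks overlay 29.6% of the H3K79me2 length in these genes in control and 34.0% in knockdown cells, or, as a share of H3K79me3, 18.4% and 31.4%. With 3 or 4 peaks per list these shares describe the 8 genes and allow no comparison with other genes, since peaks in the rest of the lists were not assigned to genes.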

How the data were processed

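Alignment used Bowtie2 (no version named in the labels) and hg19, per the submitters' processing notes. MACS 1.4.2 called peaks in each library alone, per the file headers, with no control file, a p cutoff of 1e-05, at most 1 tag per position, an effective genome size of 2.7 Gb and a regional background over 10000 bp. The ChIP libraries held 13144744 to 17044011 filtered tags, and the estimated fragment was 126 to 210 bp; its part in the called widths was not tested.

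The deposited tags are whole-number counts, not normalized. Fold enrichment, as deposited, is a ratio set by the caller within the library. The deposited significance column was used as a score: its lowest value is 50 at that cutoff, so it is 10 times the quantity its heading names. The authors' scores and folds only describe or filter peaks within a list.

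Only peaks on the assembled chromosomes were used (pandas 2.3.3 and scipy 1.17.1 under Python 3.11.15). Gene spans were given on hg19 without strand; strands came from the RefSeq promoter table and, for DOT1L, textbook knowledge. Span lengths differed from RefSeq lengths on GRCh38.p14 by -1.38 to 0.07%. Overlapping peaks of both lines were merged, tags summed and divided by filtered tags and by the width of the library's own peaks; the counting interval of a ratio is the log2 ratio ± 1.96 counting SE. Intervals cover counting error only. The region step was tested on simulated data. The 8 genes and the alternatives were chosen with earlier results of these data known. All 8 genes were named by rule; the nearest peak to the start and the widest are the same peak, since no gene had more than 1 per list. Other genes of the elongation complexes were not used here, for lack of an hg19 annotation.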

Additional observations from a re-analysis of the deposited data

Results flagged for a closer look

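At MLLT10 the log2 ratio of density, knockdown over control, was above 0 for H3K79me3, at 0.30 (95% counting interval -0.05 to 0.64), and below 0 for H3K79me2, at -0.14 (-0.40 to 0.12), and both intervals include 0. The difference between these ratios was 0.44 (counting SE 0.22), and it was not tested, since no group has more than 1 library. By summed tags both ratios were above 0, at 0.65 and 0.13, and relative to the median of all regions both signs turned, to -0.25 and 0.01. Over all regions with a peak in both lines the medians were 0.55 and -0.15.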

How the results depend on the processing

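Of 12 alternatives, 1 (scaled scores) was chosen after the data were seen. The values that moved are given here, that is those outside the 95% counting interval of a log2 ratio, over 1.5 times from a count, or unequal to a share of length. Removal of peaks on input peaks could change nothing in these genes, whose spans held 0 input peaks. With summed tags not divided by length, the log2 ratios were 0.13 (MLLT10) and 1.30 (MLLT6) for H3K79me2 and 1.18 (MLLT1) and 0.65 (MLLT10) for H3K79me3, so that 1 H3K79me2 and 2 H3K79me3 regions were past 1.5-fold upward. Relative to the median of all regions, H3K79me3 stood at 0.26 (MLLT1) and -0.25 (MLLT10), with 0 regions past the limit; with a 2-fold limit the count was also 0. A score of at least 100 left a peak in 2 genes in control H3K79me2, 1 in knockdown H3K79me2 (MLLT10), 2 in control H3K79me3 and 2 in knockdown H3K79me3 (MLLT1 and MLLT10 in both). A fold of at least 5 left 2, 0, 2 and 2 in the same order and removed MLLT10 from every list, which left it without a ratio; MLLT6 had none under either filter. With the same number of peaks from both lists, knockdown H3K79me3 was left in 2 genes. The share of H3K79me2 length under H3K79me3 was 45.5% (control) and 67.8% (knockdown) at a score of at least 100, 26.3% and 32.3% with spans extended by 5 kb, and 39.5% in control cells with scaled scores; at a fold of at least 5 it was 0% in control cells and had no value in knockdown cells. The smallest calls rest on 18 to 38 tags. No paired analysis was possible because each group holds 1 library.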
